A study of Mus musculus with 69 samples.

Results

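Heat shock proteins and DNAJ co-chaperones were followed in mRNA bound to tagged ribosomes of parvalbumin (PV) and Camk2a neurons of the mouse cortex. The members were all genes of the count table whose symbol begins with Hspa, Hspb, Hspd, Hspe or Hsph and a digit, with Hsp90, or with Dnaj. This gave 65 of the 17634 genes: 13 of the HSP70 family, 3 HSP90 genes, the HSP110 gene Hsph1, the chaperonin pair Hspd1 and Hspe1, 7 small heat shock proteins, and 4 DNAJA, 10 DNAJB and 25 DNAJC co-chaperones. The symbol alone chose them, and no measured value entered the rule. Family names here also follow the symbol prefix alone and may differ from the family of the protein.

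HSP70 and HSP90 proteins bind unfolded or immature client proteins and release them through cycles of ATP hydrolysis. DNAJ proteins deliver clients to HSP70 and start its ATPase, small heat shock proteins hold clients without ATP, and Hspd1 with its lid Hspe1 folds proteins inside mitochondria. In the endoplasmic reticulum (ER) the HSP70 protein Hspa5 (BiP) works with its own DNAJ partners and is induced by the unfolded protein response, whereas the cytosolic heat shock response is driven by the transcription factor HSF1.

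All mice were homozygous for Rpl22HA, an allele that puts an HA epitope on the large-subunit protein Rpl22 wherever Cre is active, and were between postnatal days 70 and 100. PV-Cre tagged parvalbumin interneurons and Camk2a-Cre tagged mainly excitatory neurons, and in each line Fmr1 KO mice, which model fragile X syndrome and lack the gene in all cells, were set against WT mice. Tagged ribosomes were pulled down from primary visual cortex (V1) and primary somatosensory cortex (S1). There were 10 libraries in each of PV KO V1, PV WT V1, PV KO S1 and PV WT S1, 6 in Camk2a KO V1, 8 in Camk2a WT V1, 7 in Camk2a KO S1 and 8 in Camk2a WT S1. The 69 libraries came from 37 animals, of which 32 gave both areas.

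Libraries held between 27636445 and 49105119 estimated counts (median 38767048). Fmr1 was between 6.51 and 14.7 CPM (counts scaled to library size) in the 33 KO libraries and between 35.9 and 93.9 CPM in the 36 WT libraries. The 8 PV interneuron markers summed to between 7319 and 10890 CPM in PV libraries and to between 206 and 382 CPM in 23 Camk2a libraries. In the 6 libraries of the Camk2a animals C3, C18 and C19 they summed to between 587 and 1615 CPM. Both libraries of PV animals P9 and P22 and of Camk2a animal C24, and the V1 library of P24, scored nearer to the opposite area by their area genes. These were the 50 genes per direction with the smallest p between V1 and S1 in the class, taken from these same libraries. Separately, 6 libraries went against their sex label. The C24 S1 library was also the only 1 of a second batch, which therefore could not be tested apart from that animal. The main genotype calls of members and the counts of called members are given with and without such libraries. The class and area values of single genes include them.

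The cytosolic chaperones Hspa8, Hsp90ab1 and Hsp90aa1 stood far above the other members. Per kilobase of exon, and averaged over the 8 groups, the constitutive HSP70 gene Hspa8 had a level of 690 CPM per kb, the HSP90 beta gene Hsp90ab1 had 631 and the HSP90 alpha gene Hsp90aa1 had 404.5. The next levels per kilobase were 94.7 for the ER HSP90 gene Hsp90b1, 89.3 for Dnaja2, 86.4 for the mitochondrial HSP70 gene Hspa9 and 79.1 for Hspa5. The 3 leading genes together made up between 45.9% and 53.2% of all member CPM in any library. Of the 65 members, 50 averaged above 10 CPM, 21 above 100 CPM, and 6 were under 1 CPM. These 6 were Dnajb3 (0.799 CPM), Hspa12b (0.857), Hspa1l (0.682), Hspb1 (0.154), Hspb2 (0.337) and Hspb7 (0.236), so that 3 of the 7 small heat shock genes were barely detected.

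Most members varied little among libraries of a group. The within-group coefficient of variation had a median of 10.4% over the 65 members, with 30 members under 10% and 11 over 20%. Summed over all members, the level was 13924 ± 1168 CPM in PV KO S1 and 14611 ± 773 in PV WT S1 (SD, n = 10 each). In V1 it was 13384 ± 873 CPM in PV KO and 13588 ± 737 in PV WT (SD, n = 10 each). A few animals were high for many members together. The S1 library of PV KO animal P25 held the highest value of its group for 27 of the 50 members above 10 CPM, beside 28% of all genes above that level, and its members summed to 17080 CPM. In P25 Hspa8 reached 4547 CPM in S1, where the next PV KO library had 3365 CPM, and 3811 CPM in V1, where the next had 3251 CPM. Camk2a KO animal C4 was highest in its group for 26 of the 50 members in V1 and 29 in S1, beside 26.9% and 40% of all genes above that level. What sets these 2 animals apart was not tested.

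**Figure D1:**
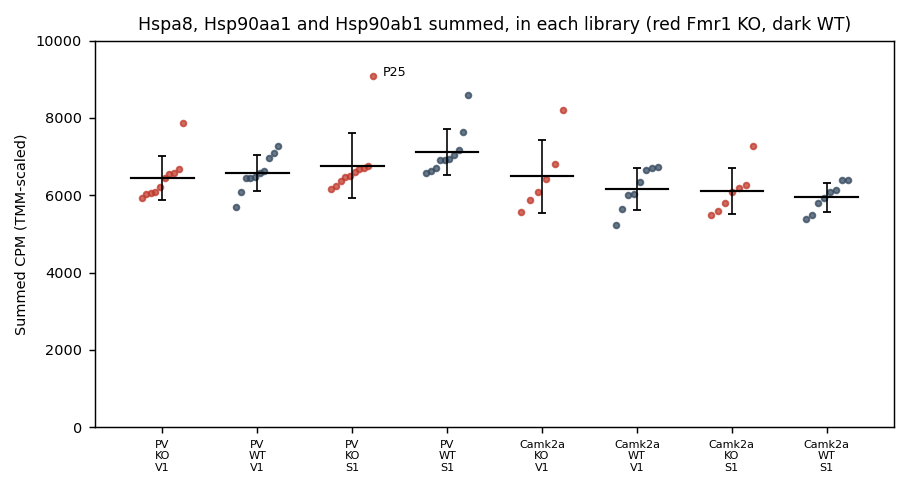
The summed level (CPM, linear axis from 0) of Hspa8, Hsp90aa1 and Hsp90ab1 in each library, by class, genotype and area, with KO in red and WT in dark. Points are libraries and bars with whiskers are means and SD. The S1 library of P25 sums to 9086 CPM, above the other PV KO S1 libraries, which lie between 6173 and 6769.

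In PV neurons of Fmr1 KO mice the ER co-chaperone Dnajb11 was lower, and no other member passed the test. Dnajb11 (ERdj3) is a soluble DNAJ protein of the ER lumen that hands clients to Hspa5; its gene lies at chr16:22857845-22879634 (plus strand, GRCm38). In S1 the lowest, median and highest levels were 51.9, 57.4 and 59.5 CPM in PV KO libraries, against 62, 65 and 81.6 CPM in PV WT libraries. The S1 groups did not overlap. Its log2 fold change, KO over WT, was -0.21 ± 0.04 (SE; edgeR quasi-likelihood test, adjusted p = 0.0144, n = 10 each). Here and below, adjusted p-values are Benjamini-Hochberg values over all genes tested and the threshold is 0.05. In ribosome-bound RNA from tissue, fewer cells of a type, less RNA per cell and less ribosome binding cannot be told apart.

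In V1 the PV KO libraries held 48.9, 53.5 and 65 CPM of Dnajb11 (lowest, median, highest) and the PV WT libraries held 54.9, 61.7 and 73.5 CPM. The V1 groups overlapped through the KO animal P11, and the log2 fold change of -0.23 ± 0.05 did not pass (edgeR adjusted p = 0.088). P11 held 65 CPM, where the next KO library had 54.9, and both of its libraries go against their sex label. Without P11 the V1 log2 fold change was -0.27 ± 0.05 and passed (edgeR adjusted p = 0.0106). With each animal's areas summed, 9 KO animals had between 50.4 and 62.3 CPM and 10 WT animals between 58.6 and 77.6 CPM, with a log2 fold change of -0.21 ± 0.04 (edgeR adjusted p = 0.0108). Leaving out any 1 animal kept both calls, with adjusted p from 0.0119 to 0.035 in S1 and from 0.00184 to 0.0306 over animals. Without P9, P22 and P24 together the adjusted p was 0.0598 in S1 and 0.0724 over animals, at log2 fold changes of -0.2 and -0.22. Leaving out 1 animal gave log2 fold changes from -0.22 to -0.17 in S1 and from -0.24 to -0.18 over animals.

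Dnajb11 was thus 1 of 62 members tested in S1 to be called lower, where 0.543% of all genes were called lower, and no member was called higher, where 0.227% of all genes were. Without P11 or without P4, Dnajc3 was called lower beside it. Over animals Dnajb11 was 1 of 63 members called lower, beside 1.05% of all genes, and none was called higher, beside 0.315%. In V1 edgeR called 0 of 63 members in either direction, beside 0.0123% of all genes higher and 0.179% lower. In V1 8 members had an unadjusted p under 0.05, and DESeq2 called 1, Dnajb11. Without P11 edgeR called 2 members lower in V1, Dnajb11 and Hspa5, and 3 over animals, with Dnajc3 added.

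The partners of Dnajb11 had values on the same side without passing the test. Hspa5, the BiP gene, had 257, 295 and 402 CPM in PV KO V1 (lowest, median, highest), against 291, 357.5 and 476 CPM in PV WT V1. In S1 it had 246, 297.5 and 369 CPM in PV KO, against 318, 349 and 505 CPM in PV WT. The genotypes overlapped in both areas, with log2 fold changes of -0.26 ± 0.08 in V1 and -0.27 ± 0.08 in S1 (edgeR adjusted p = 0.305 and 0.11). Dnajc3 (p58IPK), named after its values were seen, is an ER-lumen DNAJ protein of the unfolded protein response. It had 41.2, 46.4 and 55.6 CPM in PV KO S1, against 46.4, 55.9 and 62 CPM in PV WT S1 (log2 fold change -0.21 ± 0.06, edgeR adjusted p = 0.0796). Hsp90b1 (GRP94), the ER member of the HSP90 family, had a log2 fold change of -0.08 ± 0.05 in S1 (edgeR adjusted p = 0.572).

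Among the members that act in the ER, 8 were listed as folding factors: Hspa5, Hsp90b1, Hspa13, Dnajb9, Dnajb11, Dnajc1, Dnajc3 and Dnajc10. Their log2 fold changes in PV neurons were negative for 7 of 8 in V1, 8 of 8 in S1 and 7 of 8 over animals, with medians of -0.09, -0.08 and -0.12. That list is incomplete. Of 6 further DNAJ genes of the ER membrane, added after the values were seen (Dnajb12, Dnajb14, Dnajc14, Dnajc16, Dnajc18 and Dnajc25), 1 was negative in V1, 2 in S1 and 1 over animals, with 0 called. The 14 together were negative for 8 in V1, 10 in S1 and 8 over animals. The median of all genes tested was 0.00 in V1 and 0.01 in S1 and over animals. A list of 20 further ER folding and unfolded protein response genes had 0 called in V1, 2 called lower in S1 and 4 called lower over animals, with 16, 18 and 15 of the 20 values negative. The 4 over animals were the disulfide isomerase Pdia6 (log2 fold change -0.23 ± 0.05, edgeR adjusted p = 0.011), the ER stress-induced secreted factor Manf (-0.3 ± 0.06, 0.015), the Hspa5 complex subunit Sdf2l1 (-0.51 ± 0.11, 0.0168) and the ER stress-induced gene Creld2 (-0.33 ± 0.08, 0.0395). Sdf2l1 and Creld2 are named after their values were seen. Pdia6 and Sdf2l1 were the 2 called in S1.

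Promoter windows are shown for the 4 members in which an ER stress element was found and, as an example from the further ER genes, for Pdia6. RefSeq (GRCm38.p6) held promoters, from 250 bases before to 50 after the start, for 53 of the 65 members. The ER stress element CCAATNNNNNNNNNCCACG, searched on both strands, was in 3 of the 7 listed ER members with a promoter (Hspa5, Hsp90b1 and Dnajc3) and in 0.137% of 27025 promoters. The ER stress element II ATTGGNCCACG was in Dnajb11 and in 0.0444% of all promoters. Of the 20 further ER genes, Calr, Canx, Creld2, Pdia6 and Syvn1 held the first element and Herpud1 the second. Over PV animals Calr, Canx and Syvn1 had log2 fold changes of -0.03, -0.04 and 0.00, and the promoter of Sdf2l1, called lower, held neither element. Capitals mark the match, on either strand, in windows at chr16:22857812-22857874 (plus strand) for Dnajb11, chr2:34771985-34772068 (plus strand) for Hspa5, chr14:118937787-118937870 (plus strand) for Dnajc3, chr10:86705508-86705694 (minus strand) for Hsp90b1, which holds 2 matches, and chr12:17266451-17266534 (plus strand) for Pdia6.
Dnajb11: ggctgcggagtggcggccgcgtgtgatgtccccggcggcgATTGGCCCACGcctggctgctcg
Hspa5: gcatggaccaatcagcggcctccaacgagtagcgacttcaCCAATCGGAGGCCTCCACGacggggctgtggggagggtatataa
Dnajc3: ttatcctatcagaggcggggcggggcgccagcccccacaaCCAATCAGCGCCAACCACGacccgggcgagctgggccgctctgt
Hsp90b1: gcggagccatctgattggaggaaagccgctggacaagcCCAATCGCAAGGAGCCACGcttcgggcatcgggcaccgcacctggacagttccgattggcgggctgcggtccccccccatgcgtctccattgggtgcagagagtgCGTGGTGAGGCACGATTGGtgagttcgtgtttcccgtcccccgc
Pdia6: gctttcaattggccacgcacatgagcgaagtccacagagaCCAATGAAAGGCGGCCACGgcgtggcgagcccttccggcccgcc
A match describes these letters and is neither a shown binding site nor a cause of any value here.

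**Figure D2:**
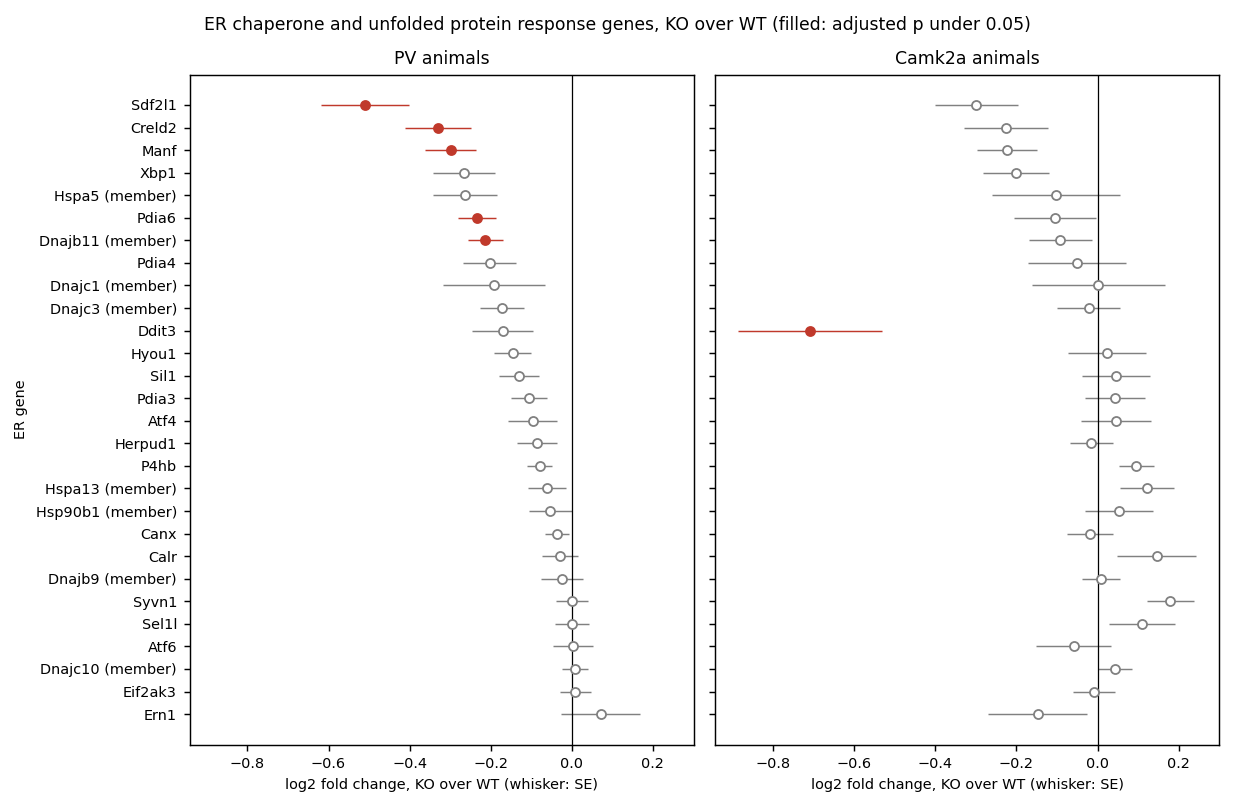
Log2 fold change, KO over WT, of the 8 listed ER members and 20 further ER genes, over PV animals (left) and Camk2a animals (right). Points are edgeR estimates, whiskers are SE and filled points have an adjusted p under 0.05. Dnajb11 at -0.21 is the only filled member among PV animals, and no member is filled among Camk2a animals.

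Outside the ER, edgeR called 0 members in PV S1, and 36 of the 48 tested there were negative, with a median log2 fold change of -0.04, while 52.3% of all genes tested were positive. Over the whole family 8 members had an unadjusted p under 0.05 in S1, of which 3 were listed ER members, and DESeq2 called Dnajb11, Dnajc3 and Hspa5. Of the 11 HSP70 genes other than Hspa5 and Hspa13, 10 were negative, and so were 24 of 26 HSP70 and HSP90 co-chaperones and 14 of 14 CCT chaperonin and prefoldin genes from the pathway lists, of which edgeR called 0. Without P25 the member median in S1 was -0.05. In V1 33 of 63 members were negative and the member median was 0.00. Hspa8 had a log2 fold change of -0.02 ± 0.05 in V1 and -0.04 ± 0.07 in S1, and Hsp90aa1 had -0.03 ± 0.05 and -0.1 ± 0.06. In the same PV S1 comparison 7 of 8 PV interneuron markers were negative, with a median of -0.04 like that of the members. Of the other markers, 6 of 6 excitatory neuron, 7 of 8 vascular and 5 of 6 microglia markers were positive, with medians of 0.15, 0.19 and 0.15. Astrocyte and other interneuron markers were positive for 4 of 6 each (medians 0.13 and 0.11). All 3 red blood cell markers tested were positive (1.02). Oligodendrocyte markers went the other way, with 5 of 6 negative and a median of -0.08. Of all these markers 0 were called. Their part in the member values was not tested.

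Small heat shock and endothelial HSP70 genes came next to Dnajb11 among the smallest p-values in PV V1. Hspb8, a small heat shock protein that works with the co-chaperone Bag3 in autophagy of misfolded proteins, had 5.03, 6.36 and 8.4 CPM in PV KO V1, against 5.61, 7.65 and 12.2 CPM in PV WT V1 (log2 fold change -0.39 ± 0.12, edgeR adjusted p = 0.273). Hspa12b, a distant HSP70 relative best known from endothelial cells, had 0.884, 1.1 and 1.68 CPM in PV KO V1, against 0.99, 1.81 and 2.83 CPM in PV WT V1 (-0.62 ± 0.19, 0.234). Both genes overlapped between genotypes.

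The areas of an animal deviated together: the correlation of V1 and S1 deviations from the group means was above 0.1 in 15 of 19 PV animals and 12 of 13 Camk2a animals, and the libraries of a pair are the same animal by label. With the animal as a replicate block in limma-voom on single libraries, 6 members were called lower in PV KO, beside 1.76% of all genes, and 0 higher, beside 0.715%. These were Dnajb11 (log2 fold change -0.22 ± 0.03, limma adjusted p = 5.49e-05), Hspa5 (-0.27 ± 0.06, 0.00622), Hspb8 (-0.34 ± 0.08, 0.0142), Dnajc3 (-0.18 ± 0.04, 0.0179), Dnajc21 (-0.14 ± 0.03, 0.0183) and Dnajb4 (-0.14 ± 0.04, 0.0294). DESeq2 on summed animals called 5 members lower. The calls beyond Dnajb11 therefore depend on the model.

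In Camk2a neurons of Fmr1 KO mice the testis-enriched HSP70 gene Hspa2 was higher in V1 and the low-level Hspa12b was lower over animals. Hspa2 had 53.3, 71.4 and 88 CPM in Camk2a KO V1 (lowest, median, highest), against 47.5, 52.5 and 55.5 CPM in Camk2a WT V1. All 6 KO libraries lay above the WT mean, and the groups overlapped. Its log2 fold change in V1 was 0.38 ± 0.08 (edgeR adjusted p = 0.0342, n = 6 and 8). In S1 it had 36.7, 46.9 and 60.3 CPM in Camk2a KO, against 35.1, 38.7 and 61.1 CPM in Camk2a WT, where C24 was the highest (0.19 ± 0.12, 0.395). Over 6 KO and 7 WT animals the log2 fold change was 0.33 ± 0.09 (edgeR adjusted p = 0.0495).

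Neither Hspa2 call was kept by every alternative. Leaving out C3, C4, C5, C15, C16, C18 or C19, each alone, ended the V1 call, with a highest adjusted p of 0.0916, and 11 of 13 such omissions ended the call over animals, with a highest adjusted p of 0.121. Without C3, C18 and C19 together the adjusted p was 0.139 in V1 and 0.157 over animals. Without the libraries that go against their sex label it was 0.142 and 0.209. The log2 fold change stayed between 0.33 and 0.44 in V1 throughout.

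Hspa12b had between 0.139 and 0.319 CPM in 6 Camk2a KO animals and between 0.246 and 0.635 CPM in 7 WT animals, so that the genotypes overlapped. Its log2 fold change over animals was -0.97 ± 0.25 (edgeR adjusted p = 0.044), and 10 of 13 omissions of a single animal ended the call, with a highest adjusted p of 0.109 without C7. In the same comparison 4 markers of other cells were called lower. They were the smooth muscle gene Tagln (log2 fold change -1.89 ± 0.31, edgeR adjusted p = 0.00628), the astrocyte genes Aldoc (-0.84 ± 0.1, 0.00193) and Aldh1l1 (-0.35 ± 0.09, 0.0357), and the myelin gene Mbp (-0.41 ± 0.1, 0.0336). Over the whole lists, 5 of 8 vascular, 2 of 6 astrocyte and 5 of 6 oligodendrocyte markers were negative. The 8 vascular markers summed to between 6.98 and 11.3 CPM in Camk2a KO V1 and between 8.71 and 11.7 CPM in Camk2a WT V1, and their part in Hspa12b was not tested.

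Counted over the family, Camk2a V1 had 1 of 64 members called higher, beside 0.62% of all genes, and none lower, beside 0.784%. Over animals 1 was called higher and 1 lower, beside 2.05% of all genes in each direction. In S1 edgeR called 0 of 64 members, beside 1.99% of all genes higher and 2.09% lower. In S1 15 members had an unadjusted p under 0.05 and DESeq2 called 5. With the replicate block in limma-voom, 2 members were called higher, beside 6.43% of all genes, and 6 lower, beside 5.79%. The higher ones were Hspa2 (0.28 ± 0.09, limma adjusted p = 0.0363) and Dnajc16 (0.19 ± 0.05, 0.00953), and the lower ones were Dnajb5, Dnajc15, Dnajc21, Hspa12b, Hspa14 and Hspe1.

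The Camk2a S1 members nearest the threshold were a small heat shock gene and 2 DNAJ genes. Hspb6 (HSP20) had 1.37, 1.86 and 2.19 CPM in Camk2a KO S1, against 1.71, 2.77 and 3.24 CPM in Camk2a WT S1 (log2 fold change -0.55 ± 0.15, edgeR adjusted p = 0.0515). Dnajc16 had 89, 97.4 and 119 CPM in Camk2a KO S1, against 78.8, 85.7 and 90.5 CPM in Camk2a WT S1 (0.22 ± 0.06, 0.0531). Dnajb5, an HSP70 co-chaperone related to Dnajb1, had 180, 205 and 261 CPM in Camk2a KO S1, against 181, 297.5 and 444 CPM in Camk2a WT S1 (-0.53 ± 0.15, 0.0537). All 3 overlapped between genotypes. Without C24 these 3, Hspa12b and Hspa2 were called. Without C3, C18 and C19 Dnajb5 alone was called. Without the libraries against their sex label Hspb6, Dnajc16 and Dnajb5 were further from the threshold (edgeR adjusted p = 0.167, 0.237 and 0.201). The 6 small heat shock genes tested were all negative in S1 and over animals, with medians of -0.32 and -0.36 and 0 called. PV interneuron markers were negative too, for 7 of 8 in S1 and over animals (medians -0.62 and -0.90) and 8 of 8 in V1 (-1.28), with 0 called. In S1 they summed to between 286 and 1183 CPM in Camk2a KO and between 218 and 1615 CPM in Camk2a WT, none of the 8 was at 0 in all libraries, and their part in the small heat shock genes was not tested.

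Of the pathway lists over Camk2a animals, 1 of 20 ER genes and 1 of 26 HSP70 and HSP90 co-chaperones were called lower and 0 higher. No gene of the other pathway lists was called, beside 2.05% of all genes in each direction. The called genes were the unfolded protein response transcription factor Ddit3 (CHOP; log2 fold change -0.71 ± 0.18, edgeR adjusted p = 0.0427) and the HSP70 exchange factor Bag1 (-0.28 ± 0.07, 0.0444). Of the 20 ER genes, 12 were negative and 8 positive. In S1 1 of 12 mitochondrial folding and proteolysis genes was called higher, the protease Lonp1 (0.15 ± 0.04, edgeR adjusted p = 0.0427), beside 1.99% of all genes. The 8 listed ER members were split, with 5 positive and 3 negative over animals. All Camk2a KO animals have codes up to C14 and the Camk2a WT animals other than C1 and C2 have codes from C15 on, so genotype and code range cannot be told apart in this class.

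No member's KO effect was shown to differ between PV and Camk2a neurons. For the difference of the KO effect, PV minus Camk2a, edgeR called 0 of 65 members, beside 0.507% of all genes higher and 0.325% lower. Unadjusted p was under 0.05 for 7 members, and DESeq2 called 1, Hspa2. For Hspa2 the difference was -0.37 ± 0.11 (edgeR adjusted p = 0.104) and for Dnajb11 it was -0.12 ± 0.09 (0.599). The differences of Hspb7 and Dnajc4, the other members nearest the threshold, had adjusted p of 0.102 and 0.285. The 8 listed ER members had a negative difference, with a median of -0.13 beside 0.01 over all genes, and so had 5 of the 6 further ER membrane genes. This was not particular to the ER. Of the 11 HSP70 genes other than Hspa5 and Hspa13, 9 also had a negative difference, with a median of -0.15. Of the 51 members outside both ER lists, 26 were negative, with a median of -0.01.

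**Figure D3:**
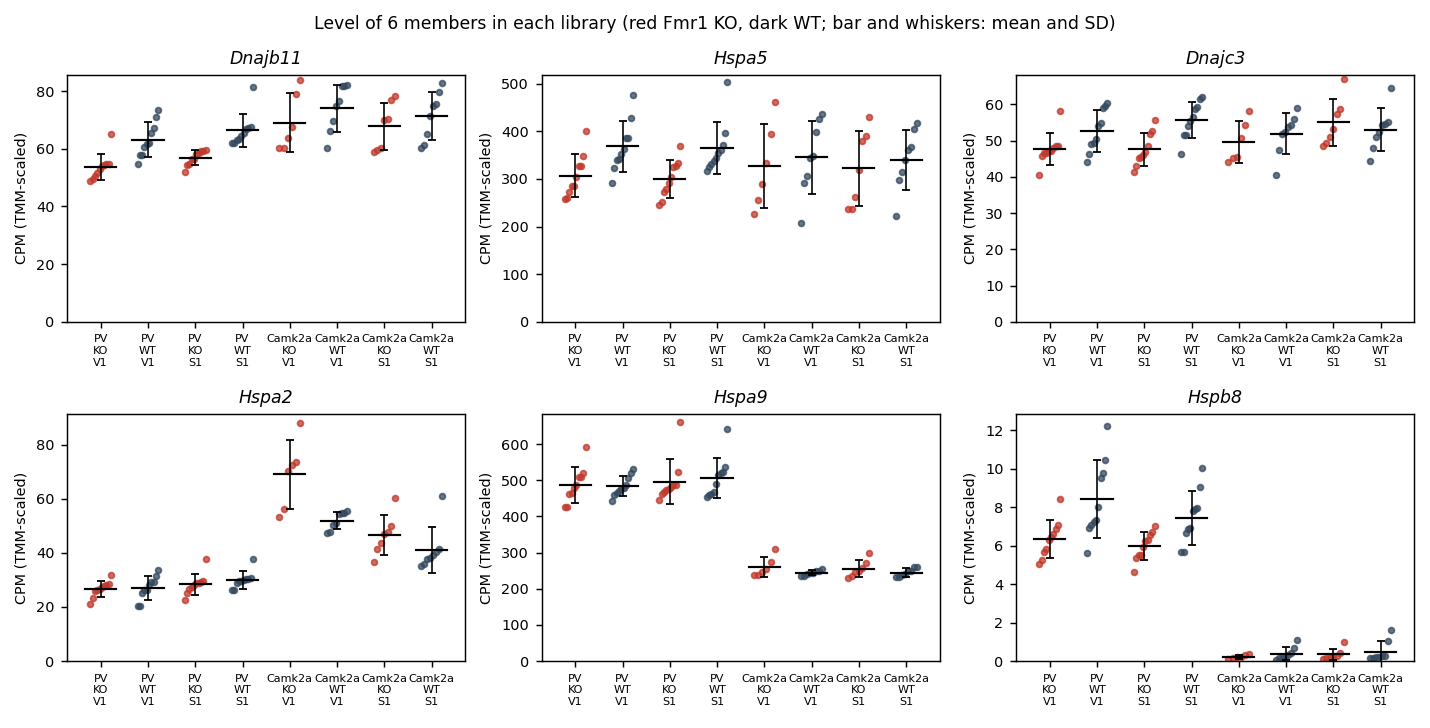
The level (CPM, linear axes from 0) of Dnajb11, Hspa5, Dnajc3, Hspa2, Hspa9 and Hspb8 in each library, by class, genotype and area, with KO in red and WT in dark. Bars and whiskers are means and SD. Dnajb11 in S1 has PV KO libraries up to 59.5 CPM and PV WT libraries from 62 CPM, and Hspb8 and Hspa9 are higher in PV than in Camk2a libraries.

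The largest differences within the family lay between the neuron classes. Each comparison set 10 PV libraries against 8 Camk2a libraries in WT, and 10 against 6 (V1) or 7 (S1) in KO. Of 63 members tested in WT V1, 23 were higher and 22 lower in PV than in Camk2a libraries, beside 39.8% and 37.5% of all genes. In WT S1 25 of 64 were higher and 22 lower, beside 39.1% and 38.1%. In KO V1 20 of 63 were higher and 20 lower, beside 38.3% and 35.9%. In KO S1 21 of 64 were higher and 25 lower, beside 39.8% and 37.9%. These shares are near those of all genes, so the family did not stand apart by its count. Across the 4 comparisons 33 members were called in all of them, 18 higher and 15 lower in PV. The 18 include Hspb8 and Hspa12b, which in part of the comparisons were barely detected in Camk2a libraries. In at least 1 comparison 57 members were called, and 0 were called with both signs.

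Some of the 63 members tested in V1 and the 64 in S1 separated the classes without overlap. Their shares were near those of all genes, so the family did not stand apart by this count either. Libraries did not overlap for 14 members higher in PV and 14 lower in WT V1, beside 20% and 22.5% of all genes. In WT S1 they did not overlap for 17 higher and 12 lower (21.1% and 24.3%), in KO V1 for 11 and 13 (21% and 23.8%) and in KO S1 for 15 and 12 (22.4% and 25.5%). The counts include Hspb8 in WT S1 and KO V1, where its Camk2a median was under 10 counts at the median depth.

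**Figure D4:**
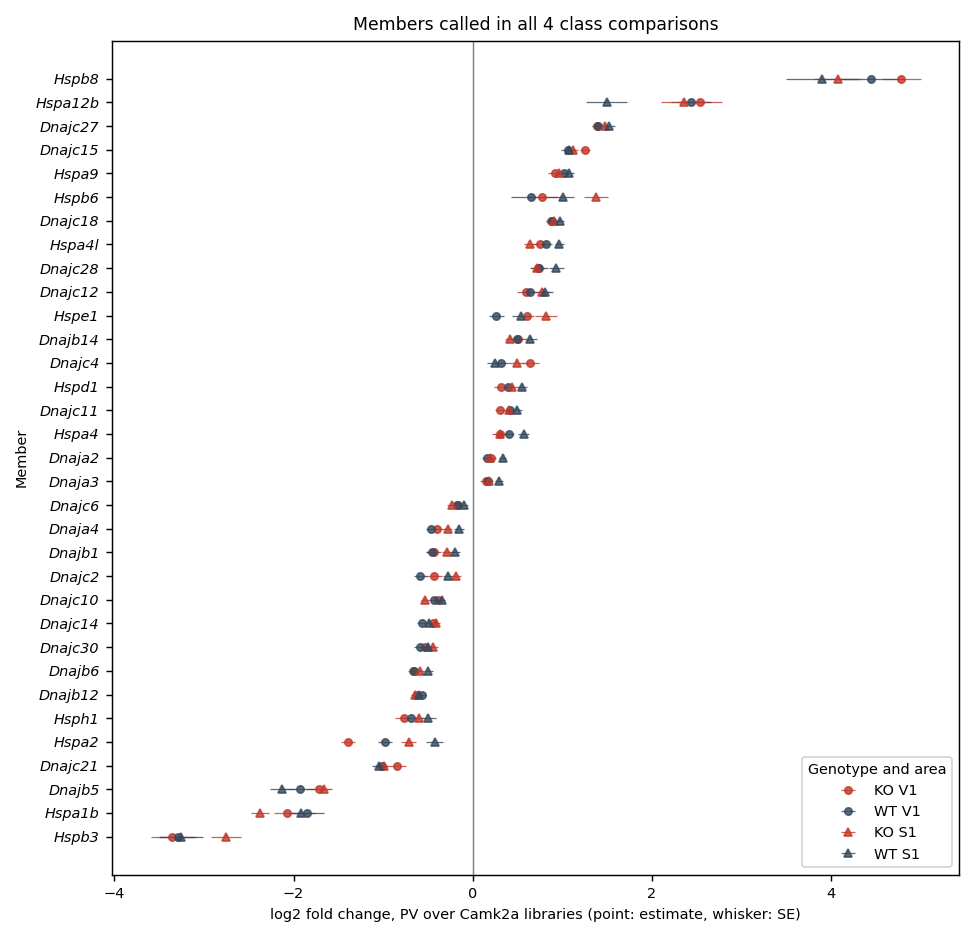
Log2 fold change, PV over Camk2a, of the 33 members called in all 4 class comparisons, with circles for V1, triangles for S1, red for KO and dark for WT. Points are edgeR estimates and whiskers are SE. Hspb8 lies between 3.9 and 4.78 and Hspb3 between -3.36 and -2.76, and no member crosses 0. In WT S1 and KO V1 the Camk2a median of Hspb8 was under 10 counts at the median depth.

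Small heat shock genes showed the widest class differences and went in opposite directions. Hspb8 had 5.61, 7.65 and 12.2 CPM in PV WT V1 (lowest, median, highest), against 0.0748, 0.274 and 1.1 CPM in Camk2a WT V1. Its log2 fold change was 4.44 ± 0.37 in WT V1, 3.9 ± 0.4 in WT S1, 4.78 ± 0.22 in KO V1 and 4.07 ± 0.26 in KO S1 (edgeR, highest adjusted p = 7.17e-08). The classes did not overlap in any of the 4. In WT S1 and KO V1, however, the Camk2a median of Hspb8 was under 10 counts at the median depth. Bag3, the co-chaperone that pairs with Hspb8, had 36.3, 43.7 and 81.8 CPM in PV WT V1, against 0.475, 1.74 and 5.05 CPM in Camk2a WT V1, and was higher by 4.26 ± 0.46 (edgeR adjusted p = 2.7e-07).

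Hspb6 was also higher in PV, with 4.1, 5.16 and 6.52 CPM in PV WT S1, against 1.71, 2.77 and 3.24 CPM in Camk2a WT S1 (1 ± 0.13, 4.66e-07 in WT S1). Hspb3, best known as a muscle small heat shock protein, was lower in PV, with 0.228, 0.326 and 0.583 CPM in PV WT V1, against 2.07, 4.33 and 5.53 CPM in Camk2a WT V1. Its log2 fold changes were -3.29 ± 0.21 in WT V1 and -2.76 ± 0.17 in KO S1. Hspb2, Hspb7 and Hspb1 were near the limit of detection. Hspb2 had 0.025, 0.0509 and 0.171 CPM in PV WT S1, against 0.304, 0.875 and 1.24 CPM in Camk2a WT S1, and Hspb7 had 0, 0 and 0.0571 CPM in PV WT S1, against 0.327, 0.586 and 0.728 CPM in Camk2a WT S1. Both are named after their values were seen. Hspb1 (HSP27) had the opposite order in V1, with 0.0547, 0.378 and 0.797 CPM in PV WT V1, against 0, 0 and 0.0499 CPM in Camk2a WT V1. The median of each of these 3 genes in the low class was under 10 counts at the median depth (0.258 CPM), so that each entered a comparison through the other class alone and its call is no support for a difference. Hspb8 in WT S1 and KO V1 and Hspa12b in KO V1 and KO S1 were also under that level in Camk2a libraries. Those calls are no support for a difference either.

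Most markers of astrocytes, oligodendrocytes, microglia and vessels were also higher in PV than in Camk2a libraries. In WT V1, 5 of 6 astrocyte, 5 of 6 oligodendrocyte, 5 of 6 microglia and 5 of 7 tested vascular markers were called higher in PV, with list medians of 1.88, 1.61, 2.22 and 1.77. Vascular markers summed to between 11.5 and 37.7 CPM in PV WT V1 and between 8.71 and 11.7 CPM in Camk2a WT V1, and none was at 0 in all libraries of a group. Hspa12b had 0.99, 1.81 and 2.83 CPM in PV WT V1, against 0.224, 0.375 and 0.47 CPM in Camk2a WT V1 (2.43 ± 0.22, edgeR adjusted p = 4.48e-09). The part of such cells in Hspa12b, Hspb1, Hspb6 and Hspb8 was not tested.

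A list of mitochondrial members, which may be incomplete, held 8: Hspa9, Hspd1, Hspe1, Dnaja3, Dnajc11, Dnajc15, Dnajc19 and Dnajc30. Of these, 6 were called higher and 1 lower in PV neurons in each of the 4 comparisons. Of all genes, 38.3% to 39.8% were called higher and 35.9% to 38.1% lower. The log2 fold changes of the 8 had medians between 0.31 and 0.52, beside 0.02 to 0.04 for all genes. Hspa9 (mortalin), the import motor and folding chaperone of the mitochondrial matrix, had 444, 477 and 533 CPM in PV WT V1, against 235, 244 and 254 CPM in Camk2a WT V1. The classes did not overlap, and its log2 fold change was 1.01 ± 0.04 (edgeR adjusted p = 3.19e-14). Dnajc15, a DNAJ protein of the mitochondrial inner membrane, had 102, 133 and 152 CPM in PV WT V1, against 52.8, 60.5 and 66.5 CPM in Camk2a WT V1, again without overlap (1.06 ± 0.08, 1.87e-10).

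The chaperonin Hspd1 (HSP60) had 179, 195 and 227 CPM in PV WT V1, against 141, 145.5 and 161 CPM in Camk2a WT V1 (0.4 ± 0.04, edgeR adjusted p = 3.21e-08), and the classes did not overlap. Its co-chaperonin Hspe1 (HSP10) had 33.6, 48.1 and 60.8 CPM in PV WT S1, against 29.8, 32.9 and 37.7 CPM in Camk2a WT S1 (0.54 ± 0.11, 0.000116). These 2 genes lie head to head on chromosome 1 and share the promoter below, shown because they were called in the same direction in all 4 class comparisons. The window lies at chr1:55088019-55088101 (plus strand), and capitals mark 2 overlapping matches, on either strand, to the heat shock element GAANNTTCNNGAA.
Hspe1: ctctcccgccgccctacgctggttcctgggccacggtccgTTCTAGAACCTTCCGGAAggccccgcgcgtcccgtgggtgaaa
That element was in 4 of the 53 member promoters, those of Hspd1, Hspe1, Hsph1 and Dnajb6, and in 0.662% of 27025 promoters. Hsph1 and Dnajb6 were lower in PV in all 4 comparisons, so the members with these letters did not share a direction. Dnajc30, like Dnajb6 named after its values were seen, was the listed mitochondrial member called lower in PV. It had 25, 29.3 and 37.6 CPM in PV WT V1, against 43, 44.9 and 53.7 CPM in Camk2a WT V1 (-0.59 ± 0.07, edgeR adjusted p = 2.48e-07).

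Of the abundant cytosolic genes, Hspa8 was called higher in PV in 3 of the 4 comparisons. It had 3101, 3344 and 4276 CPM in PV WT S1, against 2185, 2520 and 2875 CPM in Camk2a WT S1 (0.45 ± 0.07, edgeR adjusted p = 2.74e-06), without overlap. In KO V1 its log2 fold change was 0.14 ± 0.08 and was not called (0.135). Hsp90ab1 was lower in PV in V1, with log2 fold changes of -0.26 ± 0.07 in KO (edgeR adjusted p = 0.00311) and -0.12 ± 0.05 in WT (0.044). It was not called in S1 (0.552 in KO, 0.157 in WT). Hsp90aa1 was called in WT S1 alone (0.18 ± 0.05, 0.00136). The nucleotide exchange factor Hsph1 (HSP110) had 232, 278 and 298 CPM in PV WT V1, against 308, 447 and 542 CPM in Camk2a WT V1, and the classes did not overlap (-0.69 ± 0.09, 6.99e-07).

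The inducible HSP70 genes Hspa1a and Hspa1b lie close together on chromosome 17 and are near-identical copies, so their separate counts are uncertain. Hspa1b had 4.77, 6.58 and 11.7 CPM in PV WT V1, against 15.2, 24.9 and 38 CPM in Camk2a WT V1, and did not overlap (log2 fold change -1.85 ± 0.19, edgeR adjusted p = 4.97e-08). Hspa1a had 17, 22 and 28.4 CPM in PV WT V1, against 18.2, 25.2 and 30.9 CPM in Camk2a WT V1, and was not called there (-0.17 ± 0.12, 0.198) or in KO V1 (0.134). It was called lower in PV in S1, in KO (-0.34 ± 0.09, 0.00134) and in WT (-0.31 ± 0.1, 0.00665). The sum of both was 29.8 ± 5.46 CPM in PV WT V1 (SD, n = 10) and 51.8 ± 11.3 CPM in Camk2a WT V1 (SD, n = 8). Hspa1b made up 23.9% of that sum in PV WT V1 and 50.2% in Camk2a WT V1.

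Of the 10 DNAJB genes, 5 to 6 were called lower in PV and 1 to 2 higher in each comparison, beside 35.9% to 38.1% of all genes called lower and 38.3% to 39.8% called higher. Dnajb5 had 62.7, 80.5 and 119 CPM in PV WT V1, against 194, 345 and 480 CPM in Camk2a WT V1 (-1.93 ± 0.17, edgeR adjusted p = 9.36e-09). Dnajb1, the main cytosolic HSP40 and a heat shock gene, had 71.8, 82.1 and 103 CPM in PV WT V1, against 90.4, 106 and 131 CPM in Camk2a WT V1 (-0.45 ± 0.07, 7.62e-06). Dnajb5 separated the classes, whereas Dnajb1 overlapped.

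DNAJC genes went both ways. Dnajc27, a small GTPase with a DNAJ domain, had 287, 318 and 344.5 CPM in PV WT V1, against 102, 120 and 143 CPM in Camk2a WT V1 (1.39 ± 0.06, edgeR adjusted p = 7.6e-14). Dnajc21, a ribosome biogenesis factor, had 27, 31.3 and 33.9 CPM in PV WT V1, against 47.1, 64.9 and 77.3 CPM in Camk2a WT V1 (-1.02 ± 0.07, 8.32e-11). Neither overlapped. Hspa2 was lower in PV, with 20.3, 27.2 and 33.5 CPM in PV WT V1, against 47.5, 52.5 and 55.5 CPM in Camk2a WT V1 (-0.98 ± 0.07, 2.9e-10), without overlap in V1 but with overlap in S1.

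Dnajc5 (cysteine string protein), which protects SNARE proteins at the synapse, had 449, 511 and 561 CPM in PV WT V1, against 492.5, 502 and 536 CPM in Camk2a WT V1 (0.01 ± 0.05, edgeR adjusted p = 0.919). It was called higher in PV in WT S1 (0.11 ± 0.04, 0.023) and not called in KO V1 or KO S1 (0.836 and 0.676). Dnajc6 (auxilin), which uncoats clathrin vesicles with Hspa8, was lower in PV in all 4 comparisons, with log2 fold changes of -0.18 ± 0.05 in WT V1 (0.00161) and -0.1 ± 0.04 in WT S1 (0.043). Dnaja1, a cytosolic partner of Hspa8, had adjusted p between 0.196 and 0.899. Listed ER members were called lower in PV for 2 to 5 of 8 and higher for 0 to 1. Of all genes, 35.9% to 38.1% were called lower and 38.3% to 39.8% higher. Neither Hspa5 (lowest edgeR adjusted p = 0.356) nor Hsp90b1 (0.231) was called in any comparison.

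Between areas, members in PV neurons were more often lower in V1 than in S1. Of 63 members, 6 were called higher and 17 lower in V1, beside 21.9% and 17.8% of all genes, and the member median was -0.07 beside 0.02 for all genes. Under unfiltered counts the split was 4 higher and 27 lower, for which the share of all genes is not given. The lowest p belonged to Hspa12a, a brain-enriched distant HSP70, with 337, 393 and 495.5 CPM in PV V1 (lowest, median, highest), against 385, 469 and 522.5 CPM in PV S1 (log2 fold change -0.22 ± 0.04, edgeR adjusted p = 0.00013, n = 20 each). The areas overlapped, and V1 was the lower area in 17 of 19 animals.

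Other members lower in V1 of PV neurons were Dnajc8, a splicing-associated DNAJ protein, with 79.9, 88.6 and 105 CPM in V1, against 88.9, 105 and 122 CPM in S1 (-0.17 ± 0.04, edgeR adjusted p = 0.000439, lower in 18 of 19 animals). Dnajc11, of the mitochondrial cristae complex, had 91.1, 100 and 120 CPM in V1, against 100.5, 110 and 126 CPM in S1 (-0.13 ± 0.03, 0.000412). Dnaja2 (-0.13 ± 0.03, 0.000736) and Dnaja4 (-0.18 ± 0.04, 0.000826), both cytosolic HSP70 partners, were lower in 15 of 19 animals each. All 8 listed mitochondrial members were negative, 4 of them called, and none of the 3 HSP90 genes was called.

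The pathway lists in PV neurons differed among themselves, against the 17.8% of all genes called lower in V1 and the 21.9% called higher. Of the 26 HSP70 and HSP90 co-chaperones, 12 were called lower in V1 and 0 higher. Of the 10 HSF1-inducible genes outside the family 5 were called lower and 0 higher, of the 14 CCT chaperonin and prefoldin genes 4 and 0, of the 12 mitochondrial folding and proteolysis genes 5 and 1, and of the 5 heat shock factor genes tested 2 and 0. The 20 ER folding genes went the other way, with 2 called lower and 3 higher. Bag3 had 29.2, 42.5 and 81.8 CPM in V1, against 39.3, 66.7 and 83.1 CPM in S1 (-0.57 ± 0.09, edgeR adjusted p = 3.37e-05), and the HSP90 ATPase activator Ahsa1 was also lower (-0.26 ± 0.05, 0.00015).

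Members higher in V1 of PV neurons were fewer. Dnajc1, an ER membrane DNAJ protein, had 5.48, 7.49 and 14.9 CPM in V1, against 4.88, 6.19 and 8.34 CPM in S1 (0.4 ± 0.11, edgeR adjusted p = 0.00383). Dnajb5 (0.28 ± 0.08, 0.00467), Hspa12b (0.35 ± 0.12, 0.0229), Hspa1b (0.28 ± 0.1, 0.0283) and Dnajb4 (0.09 ± 0.03, 0.0382) were higher in 14 to 15 of 19 animals, and all overlapped between areas. In the same libraries 5 of 6 astrocyte, 5 of 6 excitatory neuron, 5 of 6 microglia and 6 of 8 vascular markers were called higher in V1, and 6 of 8 PV markers were called lower. Against these, 1 astrocyte marker was called lower and 1 PV marker was called higher. The PV markers summed to between 7406 and 10480 CPM in PV WT V1 and between 8954 and 10510 CPM in PV WT S1. Their part in the member values was not tested.

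**Figure D5:**
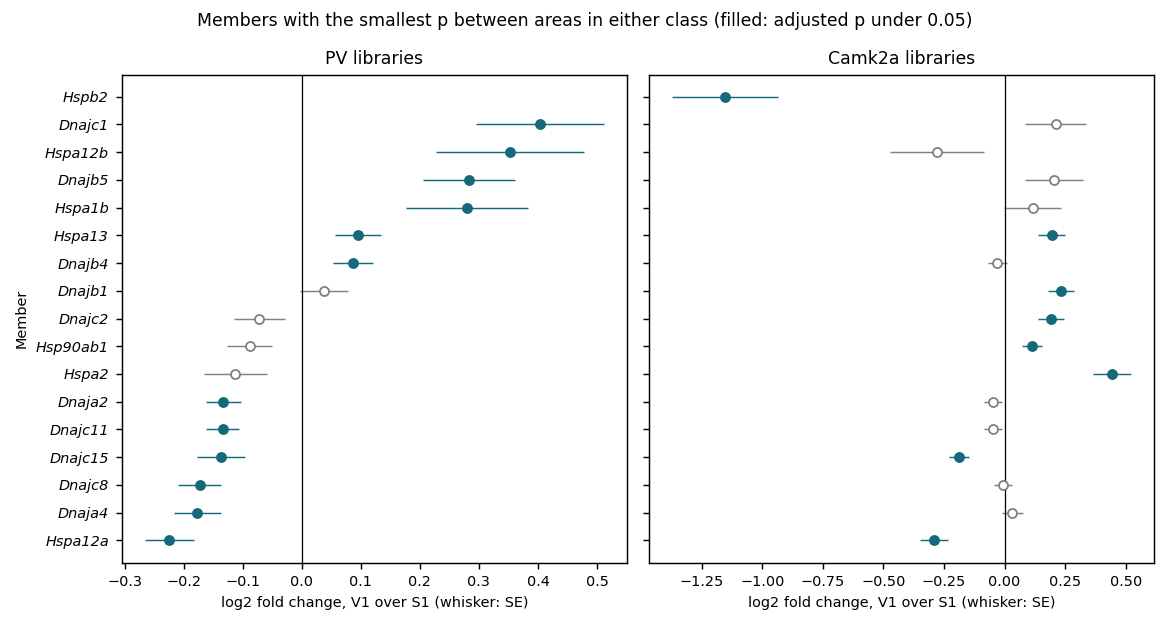
Log2 fold change, V1 over S1, in PV libraries (left) and Camk2a libraries (right) for the members with the smallest p in either class. Points are edgeR estimates, whiskers are SE and filled points have an adjusted p under 0.05, and the 2 horizontal axes have different ranges. Hspa12a and Dnajc15 are filled and negative in both classes, and Hspa2 is filled and positive at 0.44 in Camk2a libraries alone.

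In Camk2a neurons fewer members differed between areas: 5 of 64 were higher and 3 lower in V1, beside 12.7% and 12.1% of all genes. Hspa2 had 47.5, 54.7 and 88 CPM in Camk2a V1, against 35.1, 41.3 and 61.1 CPM in Camk2a S1 (0.44 ± 0.08, edgeR adjusted p = 0.00015, n = 14 and 15) and was higher in V1 in 12 of 13 animals. Dnajb1 had 90.4, 102 and 131 CPM in V1, against 78.1, 91.1 and 103.5 CPM in S1 (0.23 ± 0.05, 0.00171), also higher in 12 of 13. For both genes the 1 exception was C24, which scored nearer to the opposite area by genes drawn from this same comparison.

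Dnajc2, which binds HSP70 on the ribosome, was also higher in V1 (0.19 ± 0.05, edgeR adjusted p = 0.00913), as were the ER-linked HSP70 gene Hspa13 (0.2 ± 0.06, 0.01) and Hsp90ab1 (0.11 ± 0.04, 0.0491). Hspa12a had 256, 327 and 384.5 CPM in Camk2a V1, against 287, 402 and 540 CPM in Camk2a S1 (-0.29 ± 0.06, 0.000432), and Dnajc15 was lower too (-0.19 ± 0.04, 0.000914). Each was lower in V1 in 12 of 13 animals. Hspb2 had 0.0771, 0.351 and 0.75 CPM in Camk2a V1, against 0.304, 0.83 and 1.24 CPM in Camk2a S1 (-1.15 ± 0.22, 0.000285). All of these overlapped between areas.

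The area comparison pairs libraries of the same animals. With the animal as a replicate block in edgeR, 37 PV members were called, 7 higher and 30 lower in V1, beside 24.2% and 21.6% of all genes, and 16 Camk2a members were called, 8 in each direction, beside 16.2% and 15.4%. Among the PV members called lower with the block were Hspa8 (-0.08 ± 0.03, edgeR adjusted p = 0.0163), Hsp90aa1 (-0.09 ± 0.03, 0.0194) and Hsp90ab1 (-0.09 ± 0.03, 0.00658), which were not called without it. Within genotypes, PV KO libraries alone gave 3 calls and PV WT libraries alone gave 12, and Camk2a KO libraries alone gave 4 and Camk2a WT libraries alone gave 0. The shares of all genes called are not given for these fits or for the fits below that leave animals out. These counts therefore show no genotype difference particular to the family. Without P9, P22 and P24 the PV count was 8 higher and 20 lower, and without C24 the Camk2a count was 5 higher and 5 lower. These animals were picked by a score drawn from this same comparison, so the larger counts without them are no support for the area differences.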

How the data were processed

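RiboTag RNA-seq libraries were grouped by the labels' Cre line, genotype and area. The deposited table holds estimated counts per Ensembl gene made by the authors. The submitters' processing notes name STAR, Salmon, limma and mm10, and roles, versions and strand handling are not given in the sources used here. Of these values 71.1% were not whole, and all were rounded. Depth ranged from 27636445 to 49105119 estimated counts per library. Levels are CPM on TMM-scaled library sizes, and levels per kilobase use exon lengths of the GRCm38 annotation.

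Tests used edgeR 4.0.16 in R 4.3.3 (robust quasi-likelihood fit, filterByExpr, sex as a covariate, and genotype too between areas), fitted to the compared groups over all genes, with Benjamini-Hochberg adjustment and a threshold of 0.05. They were tested on simulated data. Alternatives used DESeq2 1.42.0, limma 3.58.1, RLE scaling, no filter, no sex covariate and left-out libraries. Adding the range of animal codes (up to P12 against P18 and above) as a covariate in PV was chosen after seeing the data. V1 and S1 libraries are paired by animal per the labels, and their deviations correlated with a median of 0.30 over 19 PV animals and 0.44 over 13 Camk2a animals.

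The members, gene lists and left-out libraries were chosen with earlier results of these data known. Values were given for 16 core members, every member called for genotype, the 6 largest class differences in each direction among members called in all 4 class comparisons, up to 5 area calls per class and direction, and the 3 smallest p-values where a genotype comparison had no call. Of each pathway list, up to 2 called genes per direction were named.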

Additional observations from a re-analysis of the deposited data

Results flagged for a closer look

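In 47 of 312 combinations of 1 of 39 members and 1 group, a single library stood far from the other libraries of its group (Dixon's test at the 95% level). Chance flags about 1 in 20 groups. Values below are CPM, each with the nearest other library of the same group. Only members flagged by this test are listed for a library.

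The S1 library of PV KO animal P25 was flagged as the highest of its group for 9 members. These were Dnaja1 (423 against 382), Dnajc2 (35.4 against 29.2), Hsp90aa1 (2155 against 1669), Hsp90ab1 (2384 against 1861), Hsp90b1 (466.3 against 381.1), Hspa2 (37.6 against 29.5), Hspa8 (4547 against 3365), Hspa9 (662.5 against 524) and Hspd1 (277 against 203). Its V1 library was the highest for Hsp90ab1 (2170 against 1834) and Hspa8 (3811 against 3251).

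Camk2a KO animal C4 was flagged as the highest of its group in S1 for Dnajc16 (119 against 101), Dnajc5 (582 against 534), Dnajc6 (637 against 469), Hsp90ab1 (2191 against 1900), Hspa12a (540.1 against 411) and Hspa13 (49.7 against 39.9). In V1 it was the highest for Dnaja2 (284 against 245) and Hsp90b1 (522 against 389.5). The S1 library of C3, also Camk2a KO, was the highest for Dnajc27 (139 against 117) and Hspb8 (0.969 against 0.427). In Camk2a KO V1, C6 was the highest for Dnajc8 (102 against 90.4) and the lowest for Hspa13 (36.2 against 43.7), and C5 was the highest for Hspa12b (0.321 against 0.206). Among Camk2a WT libraries, the S1 library of C24 was the highest for Dnajc1 (17.3 against 11) and Hspa2 (61.1 against 41.3) and the lowest for Hspa12a (287 against 361), and the V1 library of C20 was the highest for Hspa13 (49.5 against 42.9).

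The other PV KO libraries were P11, highest for Dnajb11 in V1 (65 against 54.9), P6, highest for Dnajc1 in V1 (13.6 against 8.48) and S1 (8.34 against 6.49), P23, lowest for Dnajc6 in S1 (341 against 399), and P24, highest for Hspb2 in V1 (0.154 against 0.0698). In PV WT S1, P2 was the highest for Dnajb11 (81.6 against 67.6) and Hspa5 (505 against 397), so that both ER genes stood out in the same library. P3 was the highest there for Hsp90ab1 (2387 against 2050), Hspa2 (37.8 against 30.8) and Hspa9 (642 against 537), P4 for Dnajc8 (122 against 108) and P20 for Hspb7 (0.0571 against 0), and P22 was the lowest for Hspa12a (385 against 450.5). In PV WT V1, P22 was the highest for Dnajc11 (120 against 105), Hspa12a (495.5 against 411) and Hspb6 (8.59 against 5.43), P27 was the highest for Dnajb4 (75.9 against 67.7) and the lowest for Dnajc21 (27 against 30.6), and P2 was the highest for Hspa1b (11.7 against 8.48).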

How the results depend on the processing

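Counts are of members called. The shares of all genes called are given above for the main fits and the replicate block, and not for the other settings. Counts under those settings are therefore not read as results on the family. For KO against WT in PV V1 (0 called), DESeq2 called 1 and leaving out the libraries against their sex label gave 2. In PV S1 (1 called), DESeq2 called 3, leaving out those libraries gave 2, leaving out P9, P22 and P24 gave 0 and the range of animal codes as a covariate, chosen after seeing the data, gave 2. Over PV animals (1 called) these settings gave 5, 3, 0 and 2, and the replicate block gave 6. In Camk2a V1 (1 called), DESeq2 called 3, no sex covariate gave 2, and leaving out the libraries against their sex label or C3, C18 and C19 gave 0. In Camk2a S1 (0 called), DESeq2 called 5, no sex covariate 4, leaving out C3, C18 and C19 gave 1 and leaving out C24 gave 5. Over Camk2a animals (2 called), RLE scaling and no filter each gave 1, DESeq2 8, leaving out the libraries against their sex label or C3, C18 and C19 gave 0 and the replicate block 8. The difference between classes (0 called) had 1 call, Hspa2, with DESeq2 (adjusted p = 0.0395) and without C24 (edgeR adjusted p = 0.038). Between areas, 23 PV calls became 37 with the replicate block, 12 in WT and 3 in KO libraries alone, and 8 Camk2a calls became 16 with the replicate block, 0 in WT and 4 in KO alone. WT or KO alone use fewer libraries than both together, PV WT and PV KO have equal numbers, and Camk2a WT has more libraries than Camk2a KO. The cause of these differences was not tested.

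Leaving out 1 animal at a time gave 0 to 2 calls in PV V1 (2 without P11), 1 to 2 in PV S1 (2 without P4 or P11), 1 to 3 over PV animals (3 without P11), 0 to 2 in Camk2a V1, 0 to 5 in Camk2a S1 (5 without C24) and 0 to 3 over Camk2a animals (3 without C24). The class counts of 45, 47, 40 and 46 stayed within 1.5 times under the alternatives run. Over 80 results on named members, 564 alternatives kept direction and call, 42 lost the call, 14 gained it and 0 changed sign. Of levels on plain library totals, 122 stayed within 1 SD and 6 did not. Depth limits the precision of members under 1 CPM.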

Other observations

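Between the neuron classes, 39.8% of all genes were called higher and 37.5% lower in PV than in Camk2a libraries in WT V1, so the counts over the lists of folding genes below do not stand apart from all genes. Of the 14 CCT chaperonin and prefoldin genes, 6 were called higher and 4 lower. Cct8, a subunit of the cytosolic ring that folds actin and tubulin, had 223, 251 and 272 CPM in PV WT V1 (lowest, median, highest), against 152.5, 172 and 177 CPM in Camk2a WT V1 (log2 fold change 0.57 ± 0.04, edgeR adjusted p = 3.46e-10). Pfdn2, a subunit of prefoldin, which delivers clients to that ring, had 50.9, 59.8 and 66.7 CPM in PV WT V1, against 76.5, 87.7 and 98.5 CPM in Camk2a WT V1 (-0.59 ± 0.06, 2.66e-08). Neither gene overlapped between the classes.

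Of the 20 ER folding genes, 7 were called higher and 8 lower in PV in WT V1. The transcription factor Atf4 averaged 279 ± 25.9 CPM in PV WT V1 (SD, n = 10) and 116 ± 16.5 CPM in Camk2a WT V1 (SD, n = 8), with a log2 fold change of 1.26 ± 0.08 (edgeR adjusted p = 6.61e-12). The ER membrane sensor Atf6 averaged 76.1 ± 8.15 CPM in PV WT V1 and 148 ± 19.3 CPM in Camk2a WT V1 (-0.9 ± 0.07, 7.77e-10). Of the 5 heat shock factor genes tested in WT V1, Hsbp1, which binds HSF1, was called lower (-0.61 ± 0.08, 4.51e-07) and 0 were called higher. Of the 12 mitochondrial folding and proteolysis genes, 6 were called higher and 1 lower.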
